A study of Mus musculus with 14 samples.

Results

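Binding of 13 transcription factors was examined at 9 genes of the Jak-Stat pathway: the kinase genes Jak1 and Jak2, the transcription factor genes Stat3, Stat5a and Stat5b, and the feedback inhibitor genes Socs1, Socs2, Socs3 and Cish. These 9 of 21631 protein-coding genes were chosen by name. A gene was assigned every peak with its midpoint inside the gene or at most 50 kb outside it on mm10 (GRCm38), an interval called the locus here. Stat5b, Stat5a and Stat3 are neighbours on chromosome 11, separated by 346 and 1636 bases, so the 9 genes form 7 separate loci. Together these held 456 of 279955 peaks.

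All libraries came from the Hoxb8-FL line, mouse multipotent blood progenitors kept in culture with estradiol and FLT3 ligand and labelled LMPP-like (similar to lymphoid-primed multipotent progenitors). ChIP-seq was made with antibodies to the ETS factors Spi1 (PU.1), Fli1 and Erg, the C/EBP factors Cebpa and Cebpb, the helix-loop-helix factors Tal1 and Lyl1 with their partner Lmo2, the zinc finger factors Gata2, Gfi1 and Gfi1b, and Runx1 and Meis1, with 1 library and 1 peak list per factor, and 1 rabbit IgG library was not analysed here. No treatment was given, fixation was with 0.4% or 1% formaldehyde, and there are no other genotypes or conditions. The labels tie neither concentration to a factor, so fixation may differ between the factors compared. The lists give positions of peaks 400 bp wide, without heights or read counts, so depth is unknown, and with a single library and a single line no difference had a replicate check and no test was made. The labelled cell type could not be checked against marker genes, because no expression was measured. List lengths ran from 3217 peaks for Gata2 to 76378 for Spi1.

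Many cytokine receptors of blood cells have no kinase of their own and use Janus kinases bound to their tails. The activated kinases phosphorylate STAT proteins, which pair, enter the nucleus and bind DNA at sites of the form TTCNNNGAA. Among the genes switched on are those of the SOCS family, to which Cish belongs, whose products bind receptors or kinases and damp the same signal. In blood progenitors Jak2 serves the receptors of thrombopoietin, erythropoietin and interleukin 3, and Stat5a and Stat5b are major STATs downstream of them.

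The start sites of these genes showed contrasting occupancy, which the sequences below set out. RefSeq (GRCm38.p6) gives 10 promoter windows, from 250 bases before to 50 after a start site, for 8 of the 9 genes. Socs2 has none in the table. Peaks overlapped 6 of the 10 windows, and 32.3% of all 32619 windows. The first set shows the windows of Stat3, Stat5a and Stat5b with the most factors, and the second those of Cish and Socs3, which hold STAT motifs but were overlapped by no peak. Capitals mark GGAA, the core of ETS sites, on either strand (TTCC when read on the other), and the STAT motif TTCNNNGAA, which can overlap it. Every sequence runs 5′ to 3′ on the strand of the gene.
Stat3, chr11:100939491-100939790, minus strand: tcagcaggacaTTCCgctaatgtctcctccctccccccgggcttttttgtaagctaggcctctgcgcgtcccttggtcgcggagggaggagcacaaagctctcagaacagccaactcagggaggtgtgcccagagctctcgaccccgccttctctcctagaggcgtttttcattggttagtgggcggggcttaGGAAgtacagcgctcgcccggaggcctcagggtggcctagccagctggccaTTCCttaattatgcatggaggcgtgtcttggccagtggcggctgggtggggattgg
Stat5a, chr11:100860234-100860533, plus strand: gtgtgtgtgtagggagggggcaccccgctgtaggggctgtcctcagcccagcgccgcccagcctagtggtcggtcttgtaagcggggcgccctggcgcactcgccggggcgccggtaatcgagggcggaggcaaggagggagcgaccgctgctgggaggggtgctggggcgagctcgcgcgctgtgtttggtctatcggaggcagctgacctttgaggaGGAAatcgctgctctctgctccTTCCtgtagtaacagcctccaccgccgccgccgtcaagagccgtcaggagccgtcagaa
Stat5b, chr11:100822521-100822820, minus strand: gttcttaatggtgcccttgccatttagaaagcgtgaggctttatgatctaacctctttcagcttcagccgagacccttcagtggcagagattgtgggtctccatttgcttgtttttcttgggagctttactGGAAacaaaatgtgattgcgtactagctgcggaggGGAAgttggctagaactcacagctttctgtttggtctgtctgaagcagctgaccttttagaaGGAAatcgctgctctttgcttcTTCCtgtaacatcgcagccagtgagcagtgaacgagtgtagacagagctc
Cish, chr9:107296409-107296708, plus strand: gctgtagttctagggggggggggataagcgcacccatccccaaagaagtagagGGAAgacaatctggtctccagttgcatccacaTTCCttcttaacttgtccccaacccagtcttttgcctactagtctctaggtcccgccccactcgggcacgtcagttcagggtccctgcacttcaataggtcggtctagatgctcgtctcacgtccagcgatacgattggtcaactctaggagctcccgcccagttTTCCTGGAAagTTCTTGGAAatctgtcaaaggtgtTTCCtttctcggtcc
Socs3, chr11:117969317-117969616, minus strand: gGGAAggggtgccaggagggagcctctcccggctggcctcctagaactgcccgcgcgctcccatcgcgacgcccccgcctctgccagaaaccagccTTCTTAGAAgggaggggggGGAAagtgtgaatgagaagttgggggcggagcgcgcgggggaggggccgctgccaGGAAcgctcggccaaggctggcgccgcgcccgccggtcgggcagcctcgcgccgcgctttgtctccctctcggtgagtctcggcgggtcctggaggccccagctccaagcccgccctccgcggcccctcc

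The Stat3 window was overlapped by peaks of 7 factors, Cebpa, Cebpb, Fli1, Gfi1, Lmo2, Runx1 and Spi1, and the midpoint of the Fli1 peak lay 8 bases from the start site. It holds 3 matches of GGAA, at positions -239, -57 and -6, counted from the start site as 1 with no position 0. The Stat5b window was overlapped by 8 factors, Cebpa, Cebpb, Erg, Fli1, Gfi1, Gfi1b, Lmo2 and Spi1, with the Lmo2 midpoint 0 bases from the start site. The Stat5a window was overlapped by Erg, Fli1 and Lmo2, with the Fli1 midpoint 8 bases from the start. These Stat5a and Stat5b windows belong to paralogous genes and resemble each other. Over a stretch of 65 bases, from -66 to -2 in Stat5a and from -57 to 8 in Stat5b, 58 bases (89.2%) were identical without a gap. In both the stretch holds the ETS core in each orientation, GGAA at -31 and TTCC at -9 in Stat5a, and GGAA at -22 and TTCC at 1 in Stat5b. Among the 45 pairs of windows of these genes this pair had the highest score of matches minus mismatches, 51, and the next had 15. Erg, Fli1 and Lmo2 were the factors with a peak on both. Whether reads of the 2 copies could be told apart in the authors' mapping was not tested.

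Both genes also have a RefSeq start without a peak over its window. They are the Stat5a start at position 100859656 of chromosome 11, where the nearest midpoint, of Erg, lay 800 bases away, and the Stat5b start at position 100850581, where the nearest, of Lmo2, lay 842 bases away. Each lies upstream of the start shown above for its gene. Jak1 (chr4:101265174-101265473) was overlapped by Fli1, Lmo2 and Runx1, Socs1 (chr16:10785487-10785786) by Runx1 and Spi1, and Jak2 (chr19:29251553-29251852) by Runx1 alone. Runx1 peaks thus overlapped 4 of the 10 windows, against 10.6% of all windows. Fli1 overlapped 4 (14.9% of all), Lmo2 4 (11.2%) and Spi1 3 (18.2%).

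Cish and Socs3, the classic early targets of STAT signalling, had start sites clear of peaks of all 13 factors. Most windows were clear in this way, since peaks of any factor overlapped 32.3% of all windows. In the Cish window the STAT motif occurs at positions 1 and 12, as TTCCTGGAA and TTCTTGGAA, and in the Socs3 window it occurs at -154, as TTCTTAGAA. Matches of TTCNNNGAA were found in these 2 of the 10 windows and in 8.34% of all windows. The midpoint nearest to the Cish start was of Spi1, 1358 bases downstream, and that nearest to the Socs3 start was of Cebpb, 1069 bases upstream. No STAT protein was among the factors assayed.

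Further motifs were sought on both strands in the same windows. GGAA was found in 10 of the 10 windows and in 96.0% of all windows, so its presence separates no group of windows. TGTGGT, the Runx core, was found in 1 window, the Stat5a window without a peak, and in none of the 4 overlapped by Runx1. Over all windows it occurred in 16.2% of those with a Runx1 peak and in 16.7% of those without. For other factors, TGACAG occurred in 37.5% of windows with a Meis1 peak and 18.7% of those without, TTGCNNAA in 16.7% with a Cebpa peak and 10.2% without, AAATCA in 16.4% with a Gfi1 peak and 13.9% without, and GATAA in 17.2% with a Gata2 peak and 25.6% without. CAGCTG was found in 4 windows (16.4% of all), TGACAG in 2 (18.9%), GATAA in 1 (25.4%) and CAGATG in 1 (17.1%). TTGCNNAA and AAATCA were found in 0 windows, against 10.9% and 13.96% of all. CAGCTG, an E box, lay in the Jak2, Stat3 and Stat5a windows and in the 8-factor window of Stat5b, GATAA in that of Cish.

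Across the whole loci, the genes held peaks of 100 of the 117 combinations of factor and gene (85.5%), against 57.6% over all protein-coding genes and 60.6% over the 17384 with a locus of like length (101.7 to 213.3 kb). Counting the 3 Stat genes as 1 locus gave 78 of 91 (85.7%). The median gene had 11 factors, with a range of 7 to 13, and the median of all protein-coding genes was 9. By number of peaks the median was 57 (25 to 113), against 21. Of the 9 genes, 8 had 10 or more factors, against 42.5% of all genes, and Jak1 and Socs3 had all 13, against 5.99%.

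**Figure D1:**
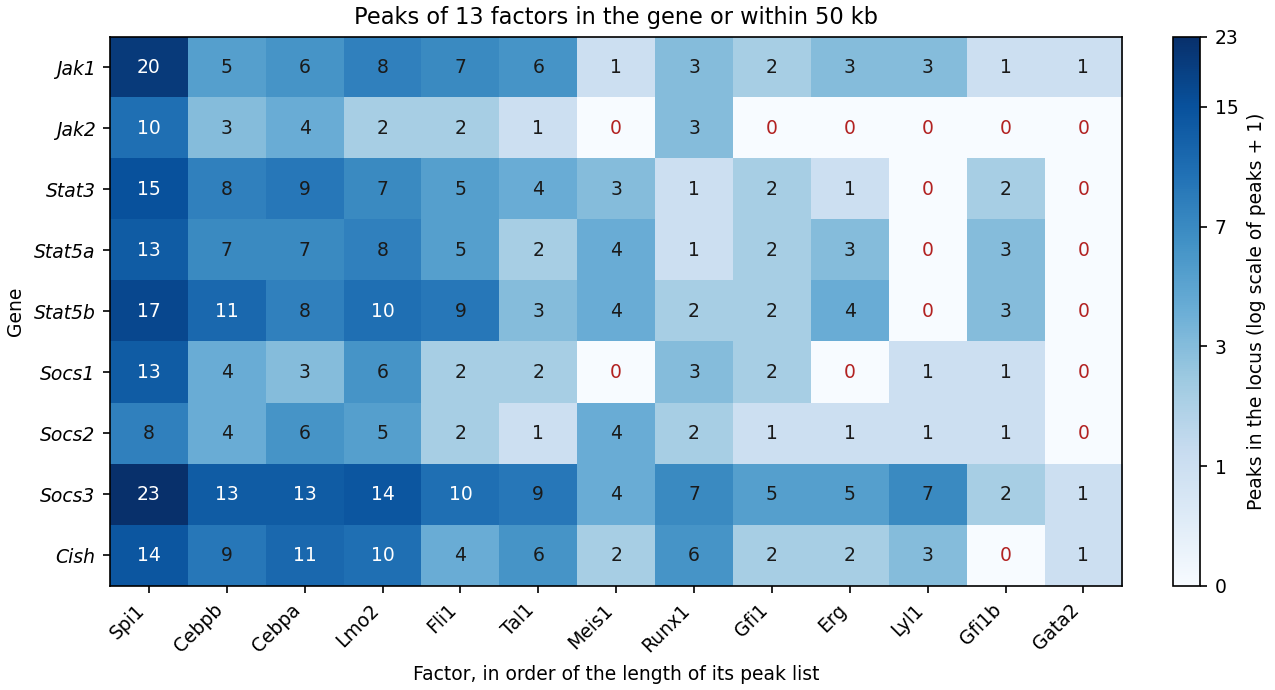
Number of peaks of each factor (columns, from the longest list to the shortest) in the gene or within 50 kb of it (rows), printed in each cell and shaded on a log scale of peaks + 1. Zeros are in red. Jak2 has 6 zeros, the 3 Stat rows share zeros for Lyl1 and Gata2, and the Socs3 row has no zero and the highest count of Spi1, 23.

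Every factor was found at a larger share of the 9 genes than of all genes, but with 9 genes, 3 of them sharing much of a locus, a share moves in large steps. A peak was present at 9 of the 9 genes for Spi1 (against 84.7% of all genes), Cebpb (against 75.5%), Cebpa (74.3%), Fli1 (69.7%), Lmo2 (69.0%), Runx1 (56.8%) and Tal1 (56.8%). Gfi1 had one at 8 (49.1% of all genes). At 7 genes there was one of Erg (51.7% of all genes), Meis1 (50.6%) and Gfi1b (46.5%). Lyl1 had one at 5 (40.5%) and Gata2 at 3 (23.2%). Of the 17 combinations without a peak, 6 were of Gata2, 4 of Lyl1, 2 each of Erg, Meis1 and Gfi1b, and 1 of Gfi1.

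**Figure D2:**
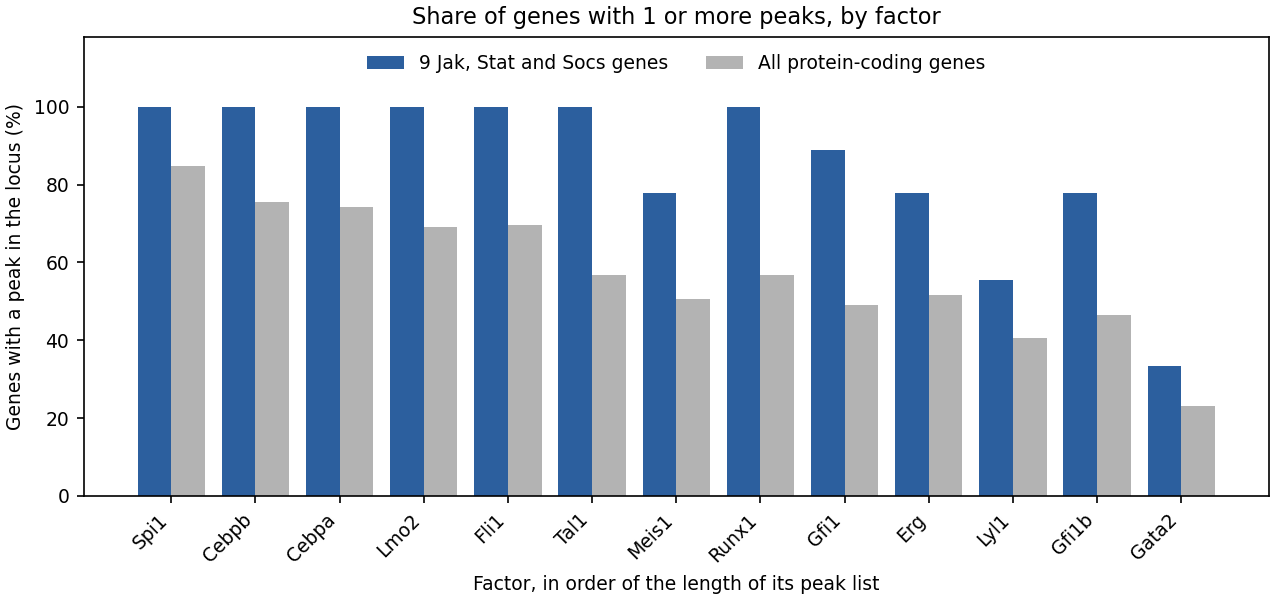
Share of genes with 1 or more peaks in the locus, in percent, for the 9 Jak, Stat and Socs genes (blue, left) and all 21631 protein-coding genes (grey, right), by factor from the longest list to the shortest. The blue bars reach 9 of 9 genes for 7 factors and are lowest for Gata2, at 3 of 9 against 23.2%.

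Merging touching or overlapping peaks gave 180 regions in the 7 loci. Of these, 90 (50%) held 2 or more factors, against 43.7% of the 121980 regions of the genome, and 56 (31.1%) held Spi1 alone, against 36.6%. After Spi1 alone, the commonest compositions were Cebpa with Cebpb and nothing else (12 regions), Lmo2 alone (10) and Cebpa, Cebpb and Spi1 (7). Cebpa with Cebpb made up 6.67% of these regions and 8.67% of all regions, Lmo2 alone 5.56% and 1.73%, and Cebpa, Cebpb and Spi1 3.89% and 2.71%. A region counted as widely shared with 5 or more factors, of which there were 28 (15.6%, against 12.9% of all regions), 10 of them at Socs3. Of the 28, 8 lay inside one of the 9 genes and 20 outside, while of the 180 regions 61 lay inside and 119 outside. Only 3 regions held 10 or more factors, 1.67% against 2.32% of all regions, and they lay at Socs2 and Socs3. These are 2 of the 9 genes, while 17.4% of all protein-coding genes had such a region in the locus.

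**Figure D3:**
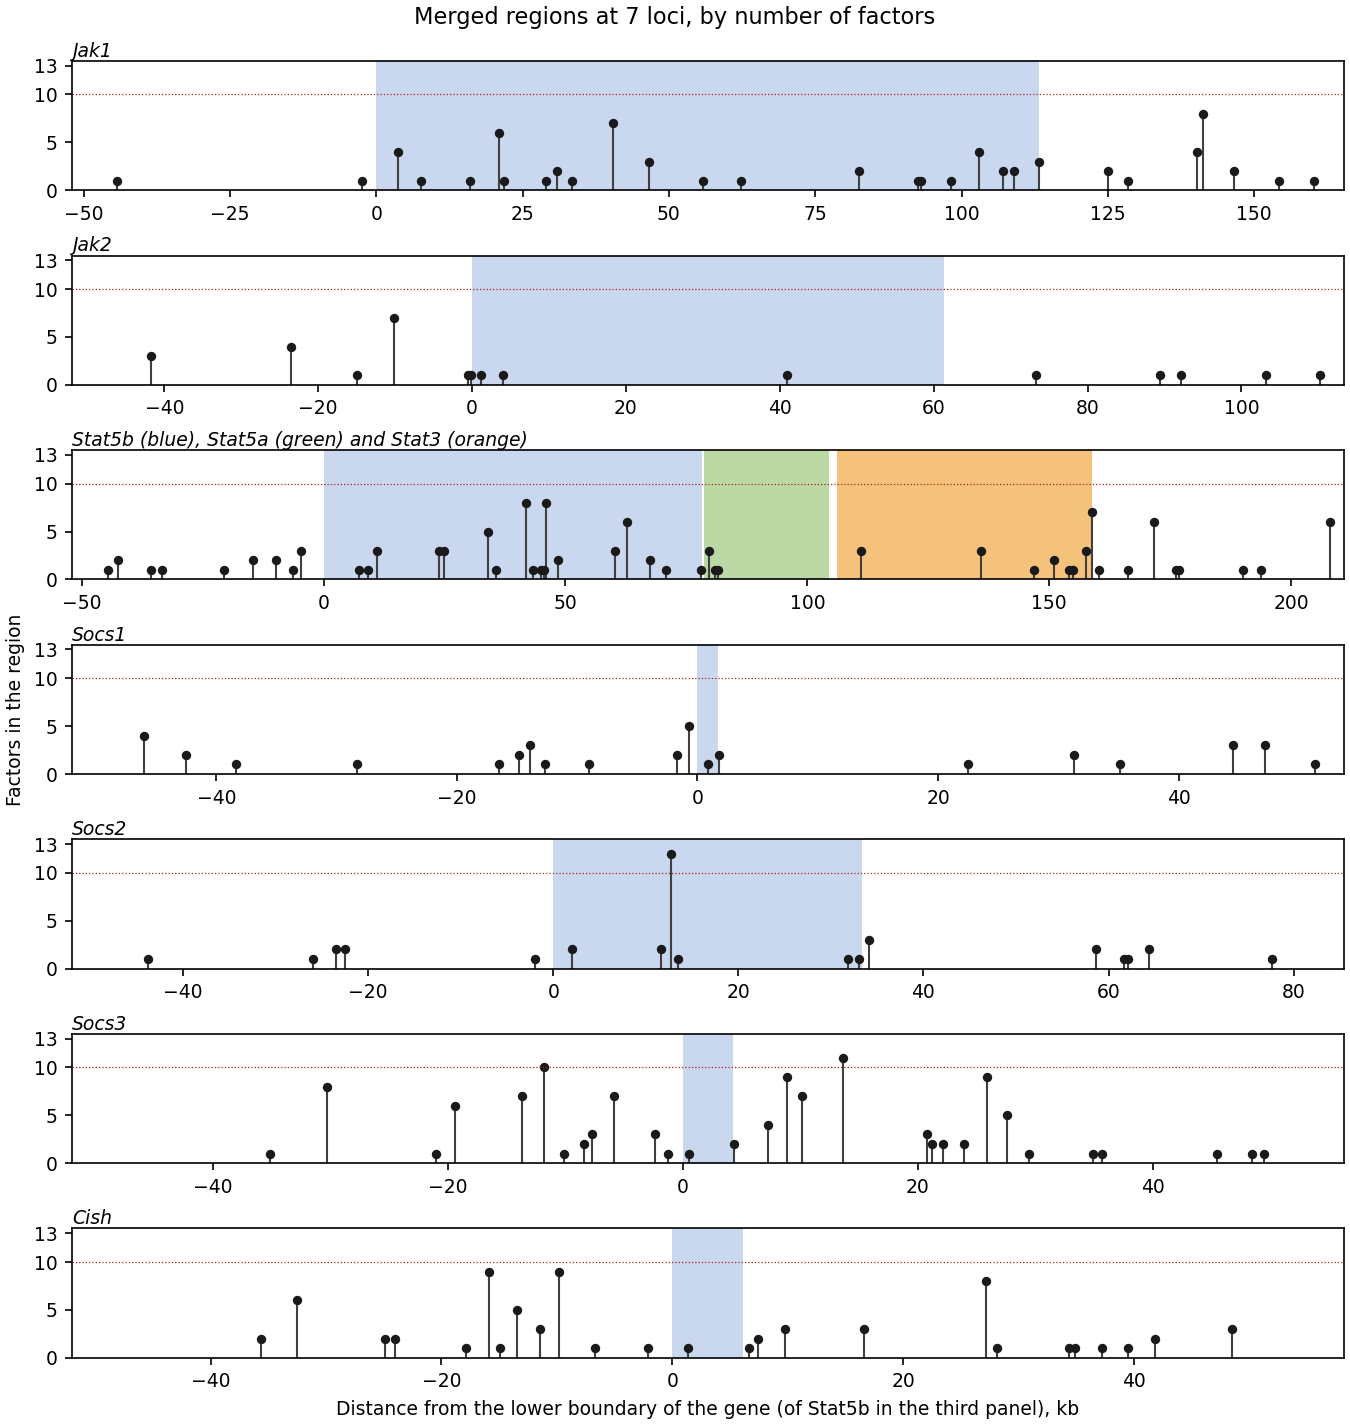
Merged regions at the 7 loci, each a line whose height is the number of factors in the region, by distance in kb from the lower boundary of the gene (of Stat5b in the panel with 3 genes). Shaded spans are gene bodies and the dotted line marks 10 factors. The Socs3 panel has widely shared regions on both sides of the gene, and the Jak2 panel a single one, with 7 factors.

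Among the kinases, Jak1, which serves interferon and gp130-type receptors, was bound along its gene by 11 factors and in its locus by all 13. The locus (gene at chr4:101151974-101265282) held 20 Spi1 peaks, 8 of Lmo2, 7 of Fli1, 6 each of Cebpa and Tal1, 5 of Cebpb, 3 each of Erg, Lyl1 and Runx1, 2 of Gfi1, and 1 each of Gata2, Gfi1b and Meis1. These 66 peaks exceed the number at 92.2% of genes, and 44 of them lay inside the gene. The region with the most factors, 8, lay 28.0 kb upstream of the start at chr4:101292942-101293422 and held Cebpa, Cebpb, Erg, Fli1, Gfi1, Gfi1b, Runx1 and Spi1. The next, with 7, lay inside the gene 72.8 kb downstream of the start at chr4:101192141-101192667, with Cebpa, Cebpb, Fli1, Lmo2, Lyl1, Spi1 and Tal1. The upstream region thus lacked Lmo2, Lyl1 and Tal1, and the one inside the gene lacked Erg, Gfi1, Gfi1b and Runx1. Gata2 and Meis1 had 1 peak each in the locus, both alone.

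Jak2 had the fewest peaks of the 9 genes, 25, a number that 55.2% of protein-coding genes lay below. Its locus (gene at chr19:29251803-29313095) held 10 Spi1 peaks, 4 of Cebpa, 3 each of Cebpb and Runx1, 2 each of Fli1 and Lmo2 and 1 of Tal1. Erg, Gata2, Gfi1, Gfi1b, Lyl1 and Meis1 had none. Inside the gene lay 3 peaks, 0.489 per 10 kb, against 2.20 per 10 kb in the flanks, and a stretch of 36.8 kb of the gene had no midpoint. The most shared of its regions was upstream, 10.1 kb from the start at chr19:29241488-29241924, with Cebpa, Cebpb, Fli1, Lmo2, Runx1, Spi1 and Tal1, that is, every factor found at the locus. The next, 23.5 kb upstream at chr19:29228073-29228582, held Cebpa, Cebpb, Fli1 and Spi1. With 10 kb either side of the gene Jak2 had 3 factors.

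The 3 STAT genes were bound mainly in Stat5b and around the Stat3 start. Their joint span of 258.9 kb held 109 peaks in 46 regions, of which 9 belonged to all 3 loci, 12 to 2 and 25 to 1. Inside Stat5b (chr11:100780731-100859004) lay 18 regions, 4 of them widely shared, and inside Stat3 (chr11:100886806-100939594) 8 and 1. Inside Stat5a (chr11:100859351-100885169) lay 3, none widely shared and all near its start, and 22.9 kb of the gene had no midpoint. Of the 57 peaks counted for Stat3, 17 lay inside it, of the 55 for Stat5a, 5, and of the 73 for Stat5b, 51, and the rest lay in flanks that overlap the neighbouring genes. Each of the 3 loci had 11 factors, but Stat5a had 6 with 10 kb either side and 5 when only peaks nearest to it were counted, and Stat3 had 6 with the upper 50% of the lines in each list.

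Of the regions inside Stat5b, a pair held the same 8 factors, Cebpa, Cebpb, Erg, Fli1, Gfi1, Gfi1b, Lmo2 and Spi1. One is the region over the start site shown above, at chr11:100822359-100822878, inside the gene and 36.4 kb from its upper boundary. The other lies 4.21 kb upstream of that start at chr11:100826514-100827043. In the region over the start no midpoint lay closer than 39.5 bases to the median of the 8. Erg, Gfi1, Lmo2 and Fli1 lay at -57.5, -54.5, -45.5 and -39.5 bases from it, and Spi1, Gfi1b, Cebpa and Cebpb at 39.5, 46.5, 55.5 and 62.5 bases. The Spi1 peak of the other region stood within the first 0.0759% of the lines of its list, although what the order of lines means is not stated. The Stat3 start, with 7 factors at chr11:100939156-100939991, was the next most shared region. Further on, regions with 6 factors lay 12.8 kb and 49.3 kb upstream of Stat3, both closest to Cavin1, the gene of a caveolar coat protein.

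Neither Lyl1 nor Gata2 had a peak anywhere in the span of the STAT genes. Tal1, the relative of Lyl1, had 4 peaks in the Stat3 locus, 2 in the Stat5a locus and 3 in the Stat5b locus. Together with Jak2, 4 of the 9 genes had Tal1 without Lyl1, against 17.7% of all genes, but the 3 STAT genes share their flanks. Within regions, all 15 Lyl1 peaks of the 7 loci lay in a region with Tal1, which had 30, while over the genome 91.5% of regions with Lyl1 held Tal1.

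Among the feedback inhibitors, Socs3, which restrains signals of interleukin 6 and G-CSF, had the densest binding. Around a gene of 4.26 kb (chr11:117966079-117970336) its locus held 113 peaks, 10.8 per 10 kb, which placed it at rank 6 of the 21631 protein-coding genes. There were 23 peaks of Spi1, 14 of Lmo2, 13 each of Cebpa and Cebpb, 10 of Fli1, 9 of Tal1, 7 each of Lyl1 and Runx1, 5 each of Erg and Gfi1, 4 of Meis1, 2 of Gfi1b and 1 of Gata2. All but 1 peak lay outside the gene. The locus had 10 widely shared regions, 5 on each side of the gene within 58.4 kb, while 0.638% of protein-coding genes had 10 or more and the median gene had 1. In the upstream flank lies Pgs1, an enzyme gene of mitochondrial lipid synthesis, and 13 of the 30 regions were closer to it than to Socs3.

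The 2 most shared regions of the Socs3 locus lay on opposite sides of the gene. The upstream one, 10.3 kb from the start at chr11:117979378-117979989, held 11 factors and lacked Erg and Gata2. Its nearest gene was Pgs1, 6.61 kb away, while the boundary of Socs3 lay 9.35 kb away. The downstream one, 15.1 kb from the start at chr11:117953989-117954526, held 10 and lacked Gata2, Gfi1b and Meis1. The only Gata2 peak of the locus lay in a region with Cebpa, Cebpb, Fli1, Lmo2, Meis1 and Spi1, at chr11:117959914-117960511. In both of the most shared regions the Cebpa and Cebpb midpoints lay close together, at 50 and 58 bases above the median midpoint upstream, and at 63 and 62 bases above it downstream. Spi1 lay at 135 bases in the upstream region and at -75 bases in the downstream one.

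Socs2, an inhibitor of growth hormone signalling, had most of its factors in a single place. Its locus (gene at chr10:95383903-95417321) held 8 Spi1 peaks, 6 of Cebpa, 5 of Lmo2, 4 each of Cebpb and Meis1, 2 each of Fli1 and Runx1, and 1 each of Erg, Gfi1, Gfi1b, Lyl1 and Tal1, and no other protein-coding gene reached into it. The region at chr10:95396377-95396971, inside the gene 12.8 kb from its lower boundary, held all of these 12 factors. It supplied the only peak of Erg, Gfi1, Gfi1b, Lyl1 and Tal1 in the locus, and the next most shared region, 0.709 kb past the upper boundary of the gene at chr10:95417815-95418245, held Cebpa, Cebpb and Spi1. The Tal1, Lmo2, Lyl1 and Erg midpoints lay within 10 bases of the median midpoint, at -4, 4, 7 and 10 bases. Gfi1 and Gfi1b both lay 68 bases above it, and Meis1 lay at -127 bases. The SD of the 12 midpoints was 54.6 bases, within the middle 50% of the 2831 regions of the genome with 10 or more factors (31.1 to 67.4, median 43.2).

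**Figure D4:**
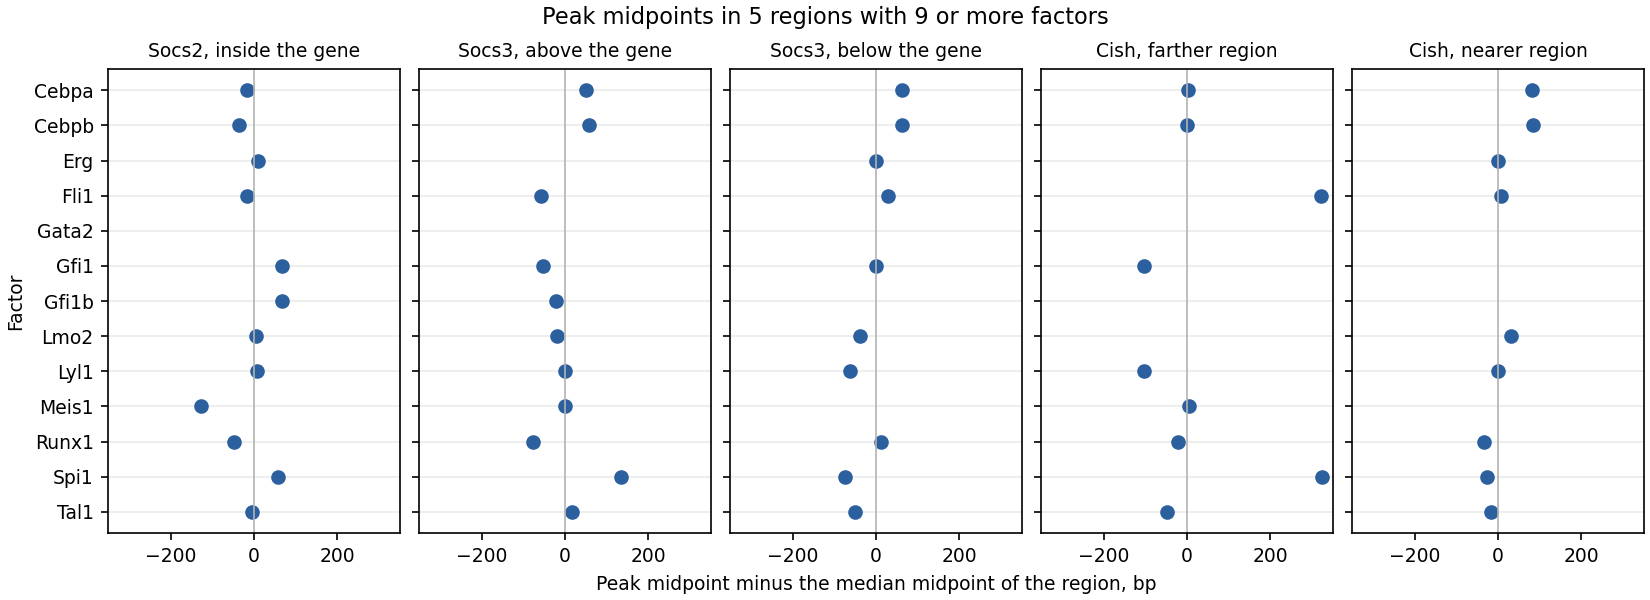
Midpoint of each factor's peak relative to the median midpoint of the region, in bp, for 5 regions with 9 or more factors at Socs2, Socs3 and Cish, 1 dot per peak. An empty row means no peak of that factor. Gata2 has no dot in any panel, and in the farther Cish region Fli1 and Spi1 stand 322 and 324 bases from the median.

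Cish, whose product binds active cytokine receptors, had 70 peaks of 12 factors in its locus (gene at chr9:107296659-107302784), 6.60 per 10 kb, a density above that of 97.9% of genes. They were 14 of Spi1, 11 of Cebpa, 10 of Lmo2, 9 of Cebpb, 6 each of Runx1 and Tal1, 4 of Fli1, 3 of Lyl1, 2 each of Erg, Gfi1 and Meis1, and 1 of Gata2. Gfi1b had none. Inside the gene lay 1 peak, of Spi1. The 2 most shared regions, with 9 factors each, lay 9.83 kb upstream at chr9:107286571-107287088 and 15.9 kb upstream at chr9:107280349-107281176. Both fall inside Mapkapk3, a stress kinase gene that holds 10 of the 25 regions and 4 of the 5 widely shared ones, and 19 of the 25 regions were closest to a gene other than Cish. Counting only peaks nearest to Cish left 7 factors.

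The nearer of these held Cebpa, Cebpb, Erg, Fli1, Lmo2, Lyl1, Runx1, Spi1 and Tal1. That set of 9 factors, with no other, occurred 3 times in the 7 loci (1.67% of their regions) and in 392 regions of the genome (0.321%). The other 2 lay in the Socs3 locus, at chr11:117974674-117975146 and, inside Pgs1, at chr11:117991716-117992197. In the farther Cish region Cebpa and Cebpb lay 2 and 0 bases from the median midpoint and Fli1 and Spi1 more than 300 bases above it, so the 9 factors there occupy 2 places in a region of 828 bp. Its Cebpb and Cebpa peaks stood within the first 0.130% and 0.414% of the lines of their lists.

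Socs1, an inhibitor of interferon signalling, had no region with more than 5 factors, the lowest maximum of the 4 inhibitor genes. By regions with 2 or more factors it had 10 of 19, beside 8 of 17 at Socs2. Its locus (gene at chr16:10783808-10785536) held 13 Spi1 peaks, 6 of Lmo2, 4 of Cebpb, 3 each of Cebpa and Runx1, 2 each of Fli1, Gfi1 and Tal1, and 1 each of Gfi1b and Lyl1, 37 in all. Erg, Gata2 and Meis1 had none. The most shared region had 5 factors, Cebpa, Cebpb, Lmo2, Runx1 and Spi1, and lay 2.46 kb downstream of the start, past the other end of the gene, at chr16:10782729-10783428. In this region of 700 bp the Spi1 midpoint lay apart, at -235 bases from the median midpoint. Those of Cebpa, Cebpb, Lmo2 and Runx1 lay at -4, 0, 3 and 65 bases. A region with Fli1, Lmo2, Lyl1 and Tal1 lay 47.7 kb from the start at chr16:10737575-10738032, inside Clec16a, an autophagy gene.

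Gata2 had 3 peaks in the 7 loci, 1 each at Jak1, Socs3 and Cish, none of them in a region with Tal1. Over the genome 10.0% of regions with Gata2 held Tal1. Besides the alone peak at Jak1 and the region at Socs3, it lay with Runx1 and Spi1 at chr9:107312820-107313603, beside Cish. Meis1 had 16 regions, 5 of them alone (31.2%, against 41.5% over the genome). Of the 57 regions with Cebpa, 47 held Cebpb (82.5%, against 82.5% over the genome), and of the 15 with Erg, 14 held Fli1 (93.3%, against 95.8%). Of the 16 with Gfi1, 7 held Gfi1b (43.8%, against 63.0%). Of the 39 with Fli1, 14 held Erg (35.9%, against 39.2%), and of the 30 with Tal1, 15 held Lyl1 (50%, against 47.4%). Lmo2 was present in 27 of those with Tal1 (90.0%, against 76.4%).

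Other genes of the pathway had a like number of factors. The 25 examined were Jak3 and Tyk2, Stat2, Stat4 and Stat6, Socs4 to Socs7, 10 further negative regulators and phosphatases and 6 known STAT targets. Their median was 11 factors (5 to 13), equal to that of the 9 genes, and 19 had 10 or more, against 42.5% of all genes. With 10 kb either side their median was 8 and that of the 9 genes 10. Combinations with a peak numbered 266 of 325 (81.8%), against 57.6% over all protein-coding genes. A region with 10 or more factors was present at 9 of the 25, against 17.4% of all genes. The most factors were found at Pias4 (13 factors, 64 peaks) and Pias1 (13 and 55), which encode SUMO ligases that restrain STATs, and at Pim1 (13 and 44), a kinase gene induced by Stat5. The fewest were found at Pim2 (5 and 14), the relative of Pim1, at Pias2 (8 and 18), at Ptpn2 (8 and 20), a phosphatase gene that acts on Janus kinases and STATs, and, tied with it, at Socs4 (8 and 20).

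The gene most like each of the 9 in peaks per factor was sought among protein-coding genes whose locus shared no peak with that of the member. It was the one with the smallest sum, over the 13 lists, of absolute differences in number of peaks. For Stat3, with 57 peaks, it was Smad7, with 56 (sum 5), for Jak2 Gas2l1 (sum 2), for Stat5a Mylip (sum 7), for Jak1 Bcl9l (sum 8), for Cish Rnf19b (sum 9) and for Socs3, with 113 peaks, Parvb, with 116 (sum 9). Ties were settled by alphabet for Socs1, where Cldnd2 was 1 of 4 genes with a sum of 6, for Stat5b, where Lcp1 was 1 of 3 with a sum of 12, and for Socs2, where Postn was 1 of 2 with a sum of 5. The median sum to all genes ran from 21 for Jak2 to 92 for Socs3.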

How the data were processed

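Peak positions were deposited by the authors as 13 lists, 1 per factor, with no counts, scores or other values. Per the labels' protocols, cells were fixed for 10 min in formaldehyde, chromatin was sonicated for 7 min and libraries followed a TruSeq kit. The submitters' processing notes name mm10 (GRCm38) and the tools Bowtie2, MACS2 and bedtools. The sources used here give neither their versions and thresholds nor the use of the IgG library. No score, read depth or replicate exists in the files, so no interval or test could be computed.

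Lists were read on 19 autosomes and chromosome X with Python 3.11.15 and pandas 2.3.3, leaving out 3 peaks. Gene intervals (GRCm38.p6) and promoter windows came from RefSeq tables without exons or introns, so these were not told apart. Start sites and strands came from the windows. Upstream means before the start site, and above and below mean higher and lower coordinates. Peaks touching or overlapping by 1 bp were merged, and a region's place is its centre. Counting was tested on simulated peaks. The genes, lists and motifs were chosen with earlier results of these data known. All 9 genes are named, as are the 3 pathway genes with the most and the 3 with the fewest factors (ties by peaks, then by alphabet, with a tied gene added), the 2 most shared regions of each locus, all regions with 10 or more factors, and 1 most similar gene each. Other regions were chosen after their values were seen. Of the list of other pathway genes, 1 is not reported here.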

Additional observations from a re-analysis of the deposited data

How the results depend on the processing

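No paired analysis was possible because each factor had 1 library and no result came from a test. The number of regions at the 9 genes was 180, and it was 91 with 10 kb and 275 with 100 kb either side of the gene, 89 with the upper 50% of lines in each list, and 115 when only peaks nearest to one of the genes counted. Regions with 10 or more factors numbered 3, and 5 with 100 kb. They numbered 2 with 10 kb, with the upper 50% of lines and without the Spi1 list. Counting only peaks nearest to one of the genes also gave 2. The share of combinations over all protein-coding genes was 57.6%, and 60.6% over genes of like locus length. For single genes, 49 of 54 recounts of factors stayed within 1.5 times the value given. The other 5 were 3 factors at Jak2 and 6 at Stat5a with 10 kb, 6 at Stat3 with the upper 50% of lines, and 5 at Stat5a and 7 at Cish when only peaks nearest to the gene counted. Leaving out the Spi1 list could only lower each count by 1, because Spi1 had a peak at all 9 genes. Those recounts could not leave the range of 1.5 times. With 100 kb, or with any peak that overlapped the locus, a count could only rise, to at most the 13 factors assayed. For the 8 genes with 10 or more factors, these recounts could not leave the range either. The 49 of 54 therefore include recounts that could not have moved. Counting any peak that overlapped the locus left every count unchanged. The depth of the libraries is unknown, so a factor without a peak at a gene was not shown to be absent from it.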
